A study of Homo sapiens with 12 samples.

Results

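The genes described here form the MYC network of transcription factors: MYC, its partner MAX, the repressors MXD1, MXD3, MXD4 and MXI1, and the related proteins MNT, MGA and MLX. All probe sets of these members were taken by gene symbol from the annotation of the array, whatever their values. The members themselves, and the gene lists used below, were chosen with earlier results of these data known. Of the 9 genes, 8 were measured by probe sets that name them alone, which makes 8 of the 19775 genes and 23 of the 54675 probe sets of the array. The 3 probe sets of MXD4 are each listed under MIR4800 as well, so their values are given but not assigned to MXD4. MYC, MXD3 and MXI1 had 1 probe set each, MNT had 2, MXD1 had 3, MGA had 4, MAX had 5 and MLX had 6.

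RNA came from H929, an established human line of multiple myeloma, the cancer of antibody-secreting plasma cells. There were 12 arrays in 4 groups of 3. In the hairpin arm, cells were infected with a short hairpin RNA against BCL9 (shBCL9) or against green fluorescent protein (shGFP), and GFP-positive cells were collected by flow sorting. In the other arm, cells were transfected with miR-30 or with the worm microRNA cel-miR-67. The labels list miR-30a to miR-30e without stating whether they were given together. All values come from a single cell line. The labels do not state that arrays of a group stem from separate cultures, so each p-value reflects array-to-array spread that could be purely technical.

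Proteins of the network bind DNA as dimers through a basic helix-loop-helix leucine zipper. MYC paired with MAX activates genes that carry the E-box CACGTG, while MAX paired with an MXD protein, MNT or MGA occupies the same kind of site and recruits repressors. MLX is the MAX-like partner of MLXIP and of some MXD proteins, and with MLXIP it drives the glucose-responsive genes TXNIP and ARRDC4 through paired E-box-like sites. In myeloma MYC is a known driver, often through rearrangement of its locus, and BCL9 is the beta-catenin co-activator of a pathway in which MYC is a classical target gene.

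The miR-30 family members share a seed, bases 2 to 8 of the mature RNA, through which a microRNA recognises its targets. It is printed in capitals here to show the sequence delivered in the transfected arm, from RefSeq annotation of GRCh38.p14; miR-30b and miR-30d are also named in the labels.
hsa-miR-30a-5p (chr6:71403595-71403616, minus strand): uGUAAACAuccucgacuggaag
hsa-miR-30c-5p (chr1:40757300-40757322, plus strand): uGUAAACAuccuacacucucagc
hsa-miR-30e-5p (chr1:40754371-40754392, plus strand): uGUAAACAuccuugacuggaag
All 3 carry the seed GUAAACA and differ only outside it.

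Promoters were searched on both strands for the E-box CACGTG, which reads the same on each strand, in RefSeq windows of 300 bases, from 250 before to 50 after the start of each gene (GRCh38.p14). CACGTG was found in 7.26% of the 35116 windows and in 8.77% of the genes. MYC had no such window, so its promoter was not searched. Among the members with a window CACGTG was found in 3 of 8 genes, MXD4, MNT and MLX. They are shown with up to 15 bases on each side and the E-box in capitals.
MXD4 (chr4:2262327-2262359, minus strand): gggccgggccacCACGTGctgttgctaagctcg
MNT (chr17:2401233-2401268, minus strand): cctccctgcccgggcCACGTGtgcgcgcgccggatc
MLX (chr17:42567035-42567070, plus strand): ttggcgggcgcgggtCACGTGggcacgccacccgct
The E-box started 238 bases before the start of MXD4, 193 before MNT and 50 before MLX. The looser form CACGNG, which includes every CACGTG, was in 30.5% of all windows, and 1.98% of windows held 3 or more matches. TXNIP and ARRDC4, the targets of the MLX dimers described below, each held such a group of CACGNG matches, in capitals on either strand.
TXNIP (chr1:145996614-145996757, minus strand): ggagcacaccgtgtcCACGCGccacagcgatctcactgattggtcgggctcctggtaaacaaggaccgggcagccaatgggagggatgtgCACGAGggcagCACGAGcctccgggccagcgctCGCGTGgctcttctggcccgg
ARRDC4 (chr15:97960478-97960583, plus strand): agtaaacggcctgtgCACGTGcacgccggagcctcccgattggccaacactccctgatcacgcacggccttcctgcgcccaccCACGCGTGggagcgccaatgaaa
TXNIP had 4 matches, between 163 and 55 bases before its start, and ARRDC4 had 3, between 210 and 140 bases before its start, of which the last 2 overlap. A match describes these letters only and is not evidence of binding.

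Over all probe sets, r was 0.997 to 0.998 within a group. It was 0.989 to 0.992 for shBCL9 with shGFP arrays, 0.996 to 0.997 for miR-30 with cel-miR-67 arrays, and 0.975 to 0.977 for shGFP with cel-miR-67 arrays. The cells carried the markers of plasma cells, with 7 of 7 at means of 9.76 to 13.79. The 40th percentile of all values is a level of 4.91, and 32874 of the 54613 probe sets have a mean above that level. Of the markers of other cells, the B cell marker MS4A1, the T cell marker CD8A, the myeloid markers CD14, LYZ and MPO, and COL3A1 and EPCAM of stroma and epithelium lay below it. PAX5, CD22, CD3E, CD3D, CSF1R and KRT5 lay between 5.29 and 6.28, and HBB (7.27), COL1A1 (7.46) and NCAM1 (9.74) higher still; their part in the results was not tested. BCL9, read by 1 probe set, was 7.73, 7.61 and 7.85 in shBCL9 cells, against 7.88, 7.90 and 7.88 in shGFP cells, a log2 change of -0.15 ± 0.08 (SE) that limma did not call (adjusted p = 0.162). An exact two-sided permutation test gave p = 0.1, the smallest possible with 3 arrays against 3. BCL9 was 7.99, 8.05 and 7.83 in miR-30 cells, against 7.82, 7.86 and 7.79 in cel-miR-67 cells (limma adjusted p = 0.48, exact permutation p = 0.2). RNA quality moved with the hairpin: the 3' minus 5' signal of ACTB was 1.67 ± 0.08 in shBCL9 cells and 1.30 ± 0.11 in shGFP cells, and 18S rRNA signal was 13.23 ± 0.02 in shBCL9 cells and 12.38 ± 0.07 in shGFP cells (SD, n = 3 each). In the transfected arm ACTB was 2.07 ± 0.01 with miR-30 and 2.16 ± 0.09 with cel-miR-67, and 18S was 12.64 ± 0.04 with miR-30 and 12.50 ± 0.05 with cel-miR-67 (SD, n = 3 each).

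The hairpin comparison set cells with a hairpin against BCL9 beside shGFP cells; BCL9 RNA itself was not called lower in them. In shBCL9 cells MYC fell, and with it the repressors MXD1, MXD3 and MXI1, while MAX and MNT did not pass the test. Of the 23 probe sets 7 were called at a Benjamini-Hochberg adjusted p under 0.05 in limma, 6 lower and 1 higher, or 30.4%. The share over all 54613 tested probe sets was 23% (12.9% lower and 10.1% higher), and over the 32874 probe sets with a mean above 4.91 it was 32.4%, against 31.8% of the 22 member probe sets above it. The members were thus called at a share near that of other expressed probe sets. In 13 of 23 member probe sets no shBCL9 array overlapped the shGFP arrays, against 38.3% of all probe sets and 49.8% of those with a mean above 4.91. The median change of the 23 was 0.05 on the log2 scale and that of all probe sets was 0.04. With the 18S signal of each array as a covariate limma called 0 members and 0 of all probe sets. That signal stood far apart between shBCL9 and shGFP cells, as given above, so this fit cannot separate it from the hairpin. MYC was then at -0.84 (limma adjusted p = 0.759). With the ACTB signal limma called 5 members, against 4140 of all 54613 probe sets. Of these members, MAX at 208403_x_at (0.61, adjusted p = 0.0412) and MNT at 236749_at (0.80, 0.0391) had not been called before. The ACTB signal did not overlap between the groups either, at 1.59 to 1.75 in shBCL9 and 1.17 to 1.36 in shGFP arrays. The ACTB fits given below for shBCL9 cells therefore cannot well separate that signal from the hairpin, whether a call was kept or lost.

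MYC, the activating member, was 8.73, 8.74 and 8.81 on the log2 intensity scale in shBCL9 cells, against 9.10, 9.05 and 9.17 in shGFP cells (probe set 202431_s_at). Every shBCL9 array lay below every shGFP array. The log2 change was -0.34 ± 0.07 (SE; 95% interval -0.50 to -0.18), which makes MYC 1.27-fold lower (limma adjusted p = 0.00401). As these are bulk samples, fewer cells with MYC RNA and less MYC RNA per cell cannot be told apart. The change was -0.38 and no longer called with the ACTB 3' minus 5' signal as a covariate (adjusted p = 0.207).

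MAX, the partner that MYC and the repressors need, was 9.87, 9.96 and 9.96 in shBCL9 cells, against 9.82, 9.91 and 9.87 in shGFP cells by its brightest probe set, 209332_s_at. These arrays overlapped, and the change was 0.06 (95% interval -0.07 to 0.19, limma adjusted p = 0.507). The changes of the 5 MAX probe sets ran from -0.06 to 0.09, and limma called none of them at an adjusted p under 0.05.

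The MXD proteins oppose MYC and rise in many cells as they stop dividing. MXI1, also called MXD2, was 10.33, 10.43 and 10.24 in shBCL9 cells, against 10.84, 10.86 and 10.85 in shGFP cells. All shBCL9 arrays were lower, and the change was -0.52 ± 0.06 (SE; 95% interval -0.65 to -0.39), a 1.43-fold fall (limma adjusted p = 3.88e-05). It was still called with the ACTB covariate, at -0.67 (adjusted p = 0.0112).

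MXD1, a repressor linked to differentiation of blood cells, gave the largest change of any member probe set in either treatment. Probe set 226275_at was 5.91, 6.06 and 5.74 in shBCL9 cells, against 6.40, 6.66 and 6.65 in shGFP cells, and 228846_at was 6.41, 6.53 and 6.27 in shBCL9 cells, against 6.57, 6.83 and 6.94 in shGFP cells. In both probe sets each shBCL9 array lay below each shGFP array. The changes were -0.66 ± 0.09 (SE), 1.59-fold lower (limma adjusted p = 0.000101), and -0.38 ± 0.09 (SE), 1.30-fold lower (adjusted p = 0.00886). The dimmest MXD1 probe set, 206877_at, had the opposite sign, with 5.53, 5.29 and 5.25 in shBCL9 cells, against 5.17, 5.15 and 5.23 in shGFP cells, a change of 0.17 that limma did not call (adjusted p = 0.223). The 2 lower probe sets remained called with the ACTB covariate, 226275_at at -1.13 (adjusted p = 0.000812) and 228846_at at -0.83 (adjusted p = 0.00879).

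MXD3, an MXD protein known from proliferating cells, was 8.40, 8.28 and 8.54 in shBCL9 cells, against 8.76, 8.69 and 8.64 in shGFP cells. All shBCL9 arrays were lower, and the change was -0.29 ± 0.08 (SE), 1.22-fold lower (limma adjusted p = 0.017). The call was lost after a further quantile normalization (adjusted p = 0.0774), without shBCL9 replicate 2 (0.073) or without shGFP replicate 1 (0.0568), and the value was 0.01 with the ACTB covariate. Among the probe sets listed under both MIR4800 and MXD4, 2 fell in shBCL9 cells, 210778_s_at by 0.43 on the log2 scale (limma adjusted p = 0.00164) and 212347_x_at by 0.40 (adjusted p = 0.00427), and 212346_s_at changed by 0.01 (adjusted p = 0.969).

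MNT, the MAX partner that most cells express throughout the cell cycle, was 9.46, 9.51 and 9.37 in shBCL9 cells, against 9.57, 9.52 and 9.46 in shGFP cells (204206_at). The arrays overlapped, and the change was -0.07 with a 95% interval of -0.22 to 0.08 (limma adjusted p = 0.528). Its dimmer probe set 236749_at had a change of 0.23 (adjusted p = 0.178). MGA, a giant MAX partner of a Polycomb repressor complex, had probe sets of both signs. Only 212945_s_at was called among its 4, with 7.85, 7.83 and 7.73 in shBCL9 cells, against 8.02, 7.96 and 8.05 in shGFP cells, a change of -0.20 ± 0.07 (SE, limma adjusted p = 0.0442). That call was lost when any single array of the hairpin arm was left out (adjusted p up to 0.146), and the brightest MGA probe set, 235409_at, had a change of 0.08 (adjusted p = 0.4). The MGA probe set 1564640_at, at a mean of 2.85, was the only member probe set below the level of 4.91.

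MLX, the partner of the glucose-sensing arm, had higher means in shBCL9 cells at each of its 6 probe sets, with changes of 0.00 to 0.32, and 1 of them was called. That probe set, 1570347_at, was 7.08, 6.99 and 7.18 in shBCL9 cells, against 6.73, 6.74 and 6.82 in shGFP cells. All shBCL9 arrays were higher, and the change was 0.32 ± 0.07 (SE), 1.25-fold (limma adjusted p = 0.00718). It was 0.44 and not called with the ACTB covariate (adjusted p = 0.133). The brightest, 213708_s_at, was 10.18, 10.15 and 10.12 in shBCL9 cells, against 10.07, 10.07 and 10.06 in shGFP cells (change 0.08, adjusted p = 0.356).

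**Figure D1:**
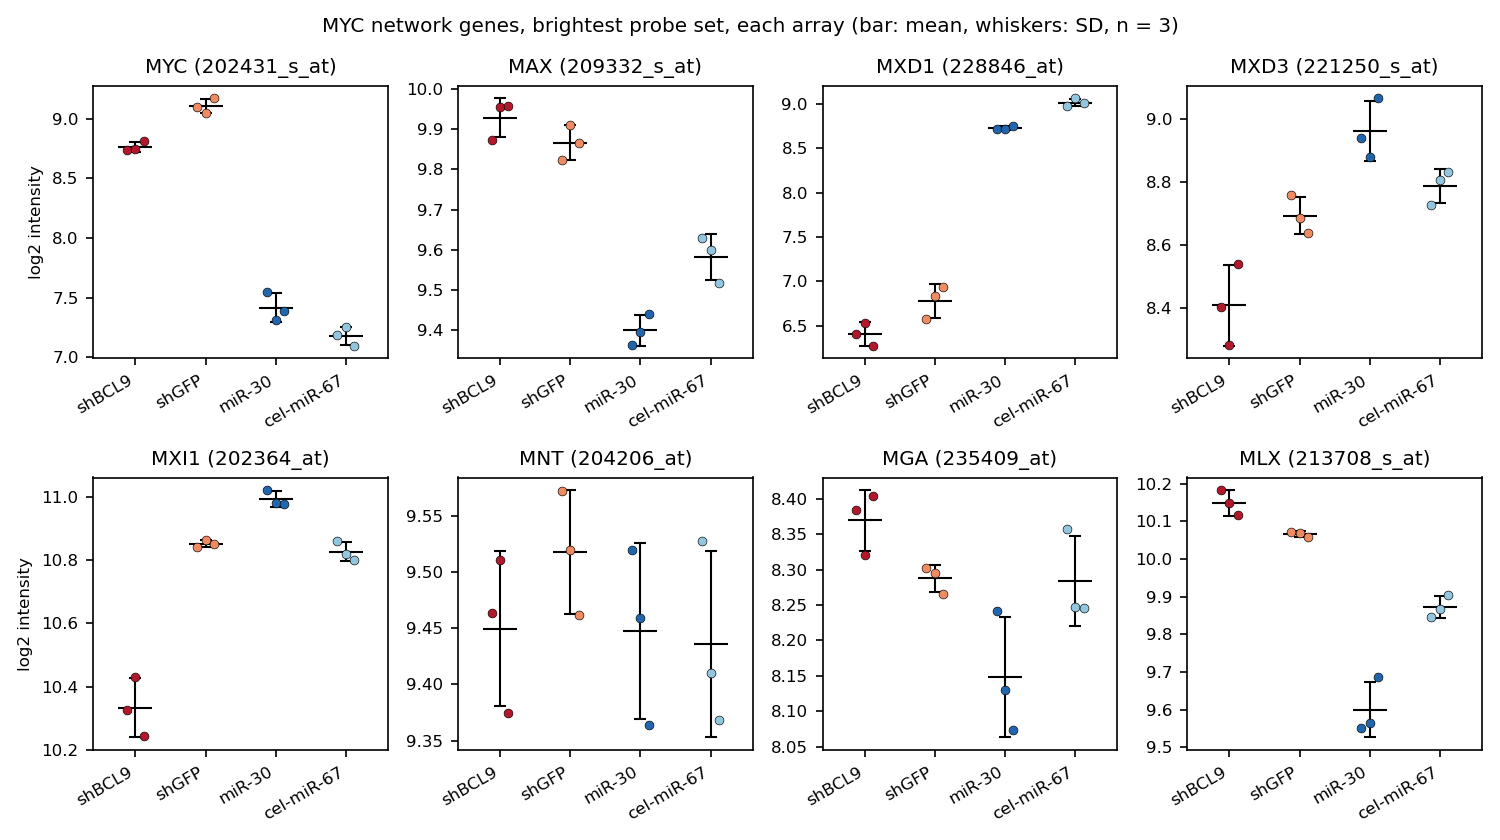
Log2 intensity (vertical axis, own scale in each panel) of the brightest probe set of the 8 named members in each array of the shBCL9, shGFP, miR-30 and cel-miR-67 groups. Points are arrays, the bar is the group mean and whiskers are the SD (n = 3); MYC, MXD1, MXD3 and MXI1 lie lower in shBCL9 than in shGFP arrays, and MYC and MXD1 lie apart between the hairpin and transfected arms in opposite directions.

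The transfected arm asked how the network responds to miR-30. None of the 23 member probe sets passed an adjusted p under 0.05 in limma, against 0.815% of all 54613 probe sets and 1.28% of those with a mean above 4.91, so the members' count differs little from the share elsewhere. At an unadjusted p under 0.05 in limma there were 9. The share of all probe sets at that threshold was not computed, so this count cannot be read as a result about the members. With probe sets filtered on low values 2 of 22 members were called, against 917 of all 34402 probe sets kept. With 1 filtered probe set per gene 1 of 8 was called, against 734 of 14729. Array weights gave 1, against 654 of 54613, and a trended, robust variance 4, against 1744 of 54613. In 9 of 23 member probe sets no miR-30 array overlapped the cel-miR-67 arrays, against 18.3% of all probe sets and 23.4% of those with a mean above 4.91. The median change of the members was -0.06 and that of all probe sets was 0.00.

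MYC was 7.55, 7.31 and 7.39 in miR-30 cells, against 7.19, 7.25 and 7.10 in cel-miR-67 cells. Every miR-30 array lay above every cel-miR-67 array, and the change of 0.24 ± 0.07 (SE; 95% interval 0.08 to 0.40) did not pass the test over all probe sets (limma adjusted p = 0.176). MAX had 9.36, 9.40 and 9.44 in miR-30 cells, against 9.63, 9.60 and 9.52 in cel-miR-67 cells by 209332_s_at. These arrays did not overlap either (change -0.18, adjusted p = 0.213).

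None of the repressors was called in limma with miR-30. MXI1 was 11.02, 10.98 and 10.98 in miR-30 cells, against 10.86, 10.82 and 10.80 in cel-miR-67 cells, a change of 0.17 (95% interval 0.03 to 0.30, limma adjusted p = 0.271). MXD3 was 8.94, 8.88 and 9.07 in miR-30 cells, against 8.73, 8.81 and 8.83 in cel-miR-67 cells (change 0.17, adjusted p = 0.38). In both genes all miR-30 arrays were the higher ones. MXD1 had 8.72, 8.72 and 8.75 in miR-30 cells, against 8.98, 9.06 and 9.01 in cel-miR-67 cells by 228846_at (change -0.29, adjusted p = 0.19), whereas 226275_at gave -0.01 (adjusted p = 0.98). MNT had a change of 0.01 (95% interval -0.14 to 0.16, adjusted p = 0.97) by 204206_at, and the 4 MGA probe sets had changes of -0.16 to -0.06.

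MLX came nearest to a call with miR-30. Its brightest probe set, 213708_s_at, was 9.55, 9.57 and 9.69 in miR-30 cells, against 9.85, 9.87 and 9.90 in cel-miR-67 cells, and 217910_x_at was 8.99, 9.02 and 9.06 in miR-30 cells, against 9.25, 9.24 and 9.33 in cel-miR-67 cells. All miR-30 arrays were lower in both. The changes were -0.27 ± 0.06 (SE; 95% interval -0.40 to -0.14, limma adjusted p = 0.055) and -0.25 ± 0.06 (SE, adjusted p = 0.0683). Both were called once probe sets with low values were filtered out, with adjusted p of 0.02 and 0.0236. The other 4 MLX probe sets had changes of -0.21 to 0.10.

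**Figure D2:**
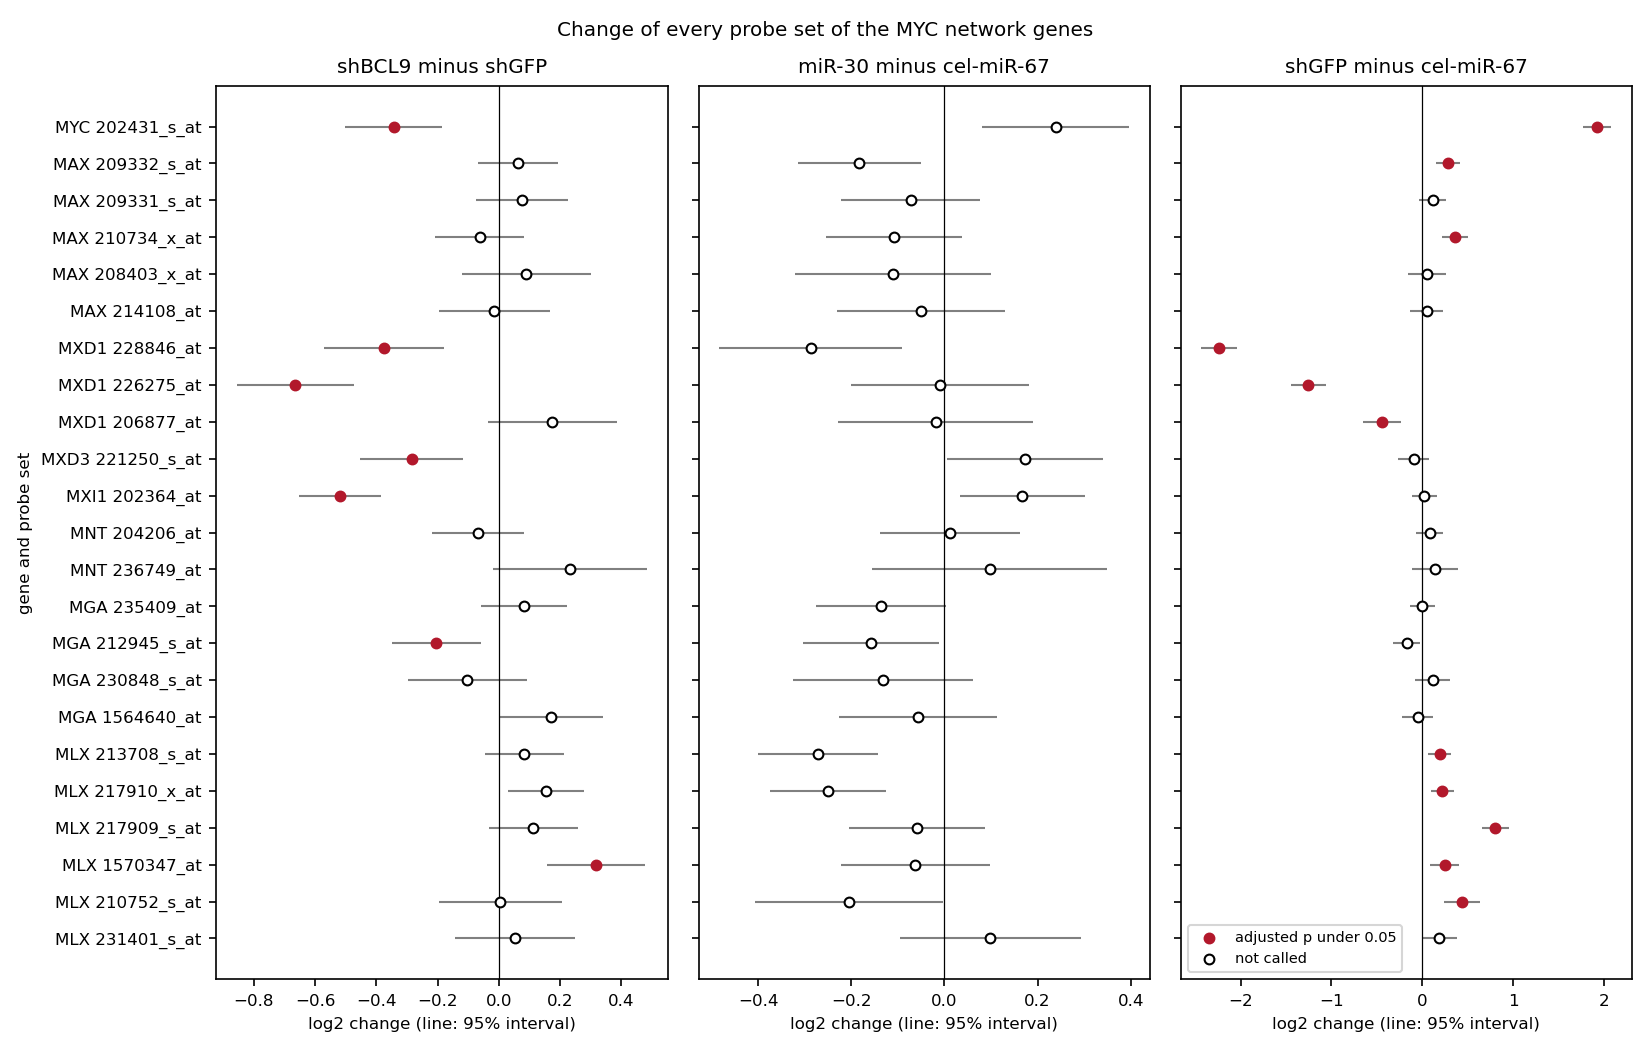
Log2 change with its 95% interval (horizontal axis, own scale in each panel) of each of the 23 member probe sets in 3 panels, for the hairpin comparison (shBCL9 over shGFP), the transfected one (miR-30 over cel-miR-67) and the controls (shGFP over cel-miR-67). Red points have a limma adjusted p under 0.05; there are 7 in the first panel, 0 in the middle panel and 11 in the last, where MYC is at 1.93 and MXD1 at -2.24.

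The arms share no array, so their effects were compared directly as the miR-30 effect minus the shBCL9 effect. Limma called this difference in 7 of 23 member probe sets, against 11.7% of all probe sets (7.25% positive and 4.41% negative) and 17% of those with a mean above 4.91. MYC differed by 0.58 (adjusted p = 0.0022), MXI1 by 0.69 (0.000171), MXD1 by 0.65 at 226275_at (0.00361) and MXD3 by 0.46 (0.0149), each with the more positive effect in the miR-30 arm. The other MXD1 probe sets were not called, with 0.09 at the brightest, 228846_at (limma adjusted p = 0.729), and -0.19 at 206877_at (0.426). MLX differed the other way, by -0.35 at 213708_s_at (adjusted p = 0.0145), -0.40 at 217910_x_at (0.0051) and -0.38 at 1570347_at (0.0321). Its other probe sets were not called, with -0.17 at 217909_s_at, -0.21 at 210752_s_at and 0.05 at 231401_s_at. With the ACTB covariate limma called MXI1, MXD1 at 226275_at and MAX at 208403_x_at, against 2080 of all 54613 probe sets. The MYC difference was then 0.62 (limma adjusted p = 0.136).

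The largest differences in the network were not between a treatment and its control but between the controls of the arms, a comparison added after the values had been seen. It shares shGFP arrays with the hairpin comparison and cel-miR-67 arrays with the miR-30 comparison, and infection with sorting, transfection and any batch of an arm cannot be told apart in it. MYC was 9.10, 9.05 and 9.17 in shGFP cells, against 7.19, 7.25 and 7.10 in cel-miR-67 cells. The groups lay far apart, and MYC was 3.80-fold higher in shGFP cells (log2 change 1.93 ± 0.07 SE, limma adjusted p = 1.15e-10). MXD1 ran the opposite way, with 6.57, 6.83 and 6.94 in shGFP cells, against 8.98, 9.06 and 9.01 in cel-miR-67 cells by 228846_at. It was 4.71-fold lower in shGFP cells (log2 change -2.24 ± 0.09 SE, adjusted p = 2.13e-10), 226275_at was 2.39-fold lower (adjusted p = 4.26e-08), and 206877_at changed by -0.45 (adjusted p = 0.00192). Limma called 11 of the 23 probe sets, 8 higher and 3 lower in shGFP cells, against 38.2% of all probe sets (19% higher and 19.2% lower) and 54% of those with a mean above 4.91.

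MLX was higher in shGFP cells at 5 called probe sets, with changes of 0.19 to 0.81. The largest was at 217909_s_at, with 9.68, 9.63 and 9.55 in shGFP cells, against 8.75, 8.78 and 8.91 in cel-miR-67 cells, 1.75-fold (adjusted p = 2.51e-07). MAX was higher at 2 of 5 probe sets, by 0.28 at 209332_s_at (adjusted p = 0.00166) and 0.36 at 210734_x_at (adjusted p = 0.000602). MXI1 differed by 0.03 (95% interval -0.11 to 0.16, adjusted p = 0.795), MXD3 by -0.09 (adjusted p = 0.384) and MNT by 0.08 (adjusted p = 0.401) by its brightest probe set. Across the groups MYC was therefore highest in shGFP cells, then in shBCL9, miR-30 and cel-miR-67 cells, with no overlap of arrays between neighbours, although the neighbours in the transfected arm did not differ in the test.

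The ACTB 3' minus 5' signal stood apart between these controls too, at 1.30 ± 0.11 in shGFP cells and 2.16 ± 0.09 in cel-miR-67 cells (SD, n = 3 each). MYC remained called with it as a covariate, at 2.00 (limma adjusted p = 0.0123), and it was the only 1 of the 23 probe sets to do so. That fit called 1576 of all 54613 probe sets. MXD1 was then -1.21 at 228846_at (adjusted p = 0.0797) and -0.19 at 226275_at (adjusted p = 0.815), MAX was 0.56 at 209332_s_at (adjusted p = 0.345) and MLX was 0.53 at 217909_s_at (adjusted p = 0.444).

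Genes that MYC is known to activate are those of ribosome assembly, nucleotide and polyamine synthesis and cell cycle entry, and 30 of the 36 listed were measured. Each was read by its brightest probe set. Between the controls 24 of the 30 were higher in shGFP cells and 4 were lower, with a median change of 1.06, against 20.5% of all 19775 genes higher, 24.1% lower and a median of 0.03. Of the 14729 genes left by the filter on low values, 4181 were higher and 4862 lower. The transferrin receptor TFRC was 4.37-fold higher (log2 change 2.13), NOP16, a factor of large ribosomal subunit assembly, 4.32-fold (2.11), MRTO4, another such factor, 4.05-fold (2.02) and SRM, the spermidine synthase, 3.90-fold (1.96). CDC25A, a phosphatase that activates cyclin-dependent kinases, was higher by 1.45 and POLR1B, a subunit of RNA polymerase I, by 1.34. The adjusted p of these 6 ran from 7.8e-12 to 7.43e-10 in limma. All 6 were still called with the ACTB covariate, when the list had 10 higher and 0 lower calls. Over all 54613 probe sets that fit gave 1040 higher and 536 lower calls. The 4 lower genes were CCND2 (-0.92), SHMT2 (-0.46), HSPD1 (-0.22) and UBTF (-0.21); HSPD1 and UBTF have other probe sets of the opposite sign. The E-box CACGTG was found in 17 of the 31 listed genes with a promoter window, 54.8%, against 8.77% of all genes. In the other lists described below it ran from 0% to 25% of genes. The list was chosen as known MYC targets, so its share describes the list and not these arrays.

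In shBCL9 cells, where MYC was 1.27-fold lower, 8 of the same 30 genes rose, 1 fell and 21 did not pass the test, with a median change of 0.13, against 11.5% of all genes higher, 15% lower and a median of 0.04. Of the 14729 genes left by the filter on low values, 2751 were higher and 3370 lower. The purine enzyme PAICS rose by 0.30 on the log2 scale (limma adjusted p = 0.00187), CDC25A by 0.30 (0.00255), TFRC by 0.28 (0.00401), the nucleolar methyltransferase FBL by 0.25 (0.00658), SRM by 0.26 (0.00659) and the mitochondrial one-carbon enzyme SHMT2 by 0.26 (0.00724). CCND2, the G1 cyclin D2, was 6.04, 6.29 and 5.97 in shBCL9 cells, against 10.71, 10.72 and 10.67 in shGFP cells, and fell by 4.60 (adjusted p = 5.79e-13). No gene of the list was called higher with the ACTB covariate, and CCND2 was at -4.80 (limma adjusted p = 5.48e-08). That fit called 1154 of all 54613 probe sets higher and 2986 lower. In miR-30 cells 1 of the 30 was called, CDC25A, with 8.07, 8.08 and 8.10, against 7.54, 7.66 and 7.65 in cel-miR-67 cells. All miR-30 arrays were higher, by 0.47 ± 0.06 (SE, limma adjusted p = 0.00232), and the list's median was 0.04, against 0.748% of all genes higher, 0.425% lower and a median of -0.01.

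Genes that MYC is known to repress, among them inhibitors of the cell cycle, were measured for 14 of the 16 listed. In shBCL9 cells 5 rose and 4 fell, with a median of 0.19, against 11.5% of all genes higher, 15% lower and a median of 0.04. CDKN1A, which encodes the inhibitor p21, rose by 0.61 (limma adjusted p = 1.37e-05), the tumour suppressor KLF6 by 0.38 (0.000408), and GADD45A, CEBPA and NDRG2 by 0.25 to 0.28. The calls of these last 3 were lost in 9, 7 and 9 alternatives in that order, among them leaving out single arrays, with adjusted p up to 0.0938 without shGFP replicate 1 for GADD45A, 0.121 without shGFP replicate 2 for CEBPA and 0.135 without shGFP replicate 3 for NDRG2; the call of CEBPA was also lost with the replicate block (0.0601). CCNG2, an atypical cyclin of arrested cells, fell by 0.99 (adjusted p = 2.42e-07) and CDKN1B, the inhibitor p27, by 0.60 (0.000186), while NDRG1 and HEXIM1 each fell by 0.24, calls lost in 4 and 5 alternatives. Only CDKN1A was called higher in this list with the ACTB covariate, at 0.79 (limma adjusted p = 0.00498). Called lower were 2 genes, CCNG2 at -1.25 (0.000238) and CDKN1B at -0.79 (0.0275). Of all 54613 probe sets that fit called 1154 higher and 2986 lower. In miR-30 cells CCNG2 alone was called, higher by 0.46 (adjusted p = 0.00663), against 0.748% of all genes higher and 0.425% lower. Between the controls 4 were higher and 5 lower in shGFP cells, with a median of 0.07, against 20.5% of all genes higher and 24.1% lower. CDKN1A changed by -3.32 on the log2 scale (adjusted p = 2.93e-13), GADD45A changed by -1.95, KLF6 by -1.14, BTG1 by -0.97 and CCNG2 by -0.71, and NDRG1 by 1.83 (adjusted p = 6.26e-11), GADD45B by 0.86, HEXIM1 by 0.48 and CEBPA by 0.32. With the ACTB covariate CDKN1A, GADD45A (-1.59, adjusted p = 0.0256) and NDRG1 (1.79, 0.0116) were still called and the other 6 were not, with CCNG2 at -0.11 (0.89) and the sign of CEBPA turned. KLF6 and CCNG2 each have another probe set of the opposite sign in that comparison.

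**Figure D3:**
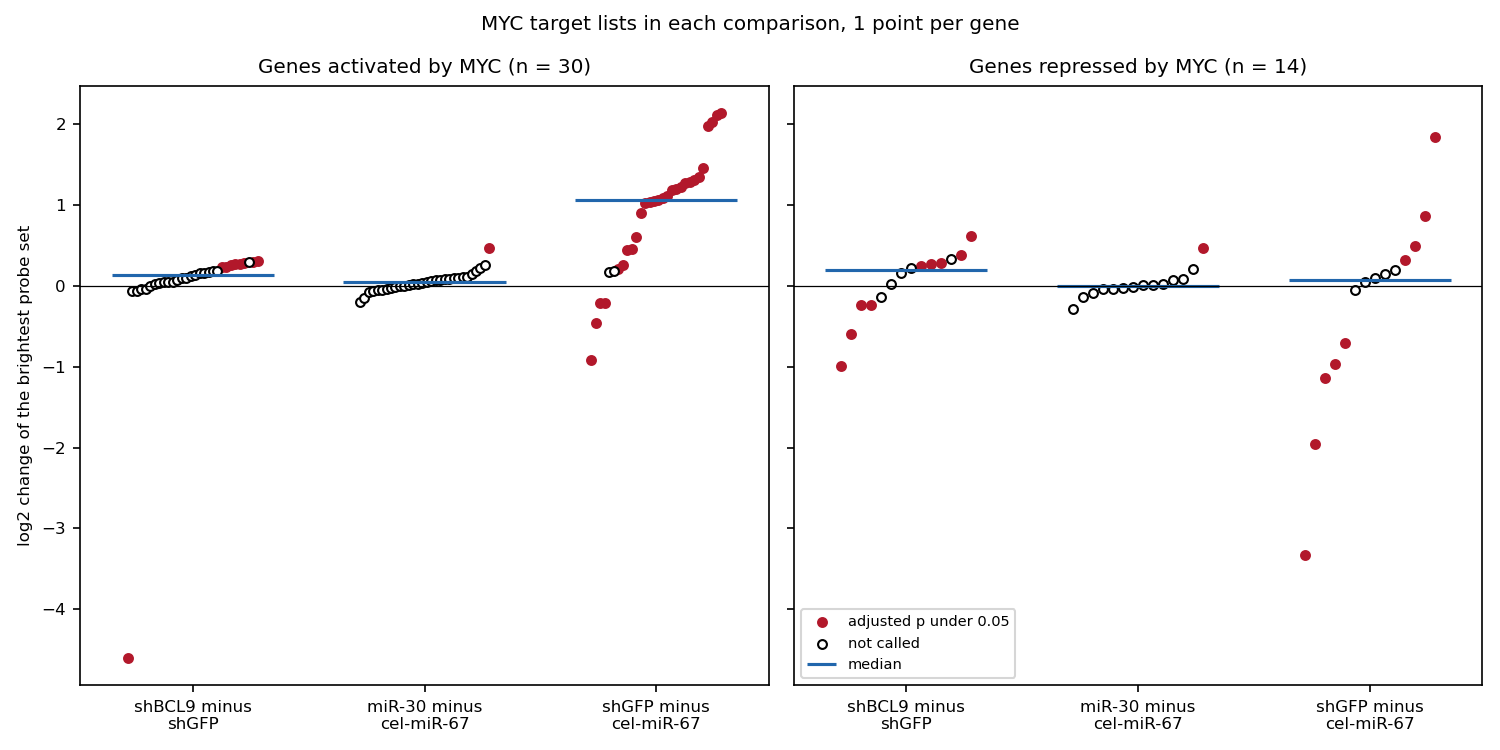
Log2 change (vertical axis) of the brightest probe set of 30 genes activated by MYC and 14 genes repressed by MYC for shBCL9 over shGFP, for miR-30 over cel-miR-67 and for shGFP over cel-miR-67. Each point is a gene, red with a limma adjusted p under 0.05, and the blue line is the median, which for the activated genes is 0.13, 0.04 and 1.06 in that order of comparisons.

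The MLX side of the network was read through MLXIP, TXNIP and ARRDC4, beside the paralogs MYCN and MYCL and the liver-type partner MLXIPL, which makes 6 genes. In shBCL9 cells 2 of the 6 fell, against 15% of all genes lower. Both are targets of the MLX dimers with the CACGNG groups printed above. TXNIP, an inhibitor of thioredoxin and of glucose uptake, was 10.62, 10.59 and 10.47 in shBCL9 cells, against 11.10, 11.10 and 11.11 in shGFP cells. ARRDC4, an arrestin-domain relative of TXNIP, was 6.29, 6.46 and 6.28 in shBCL9 cells, against 7.03, 6.91 and 6.87 in shGFP cells. In both genes all shBCL9 arrays were lower, TXNIP by 1.46-fold (log2 change -0.55 ± 0.06 SE, limma adjusted p = 3.12e-05) and ARRDC4 by 1.51-fold (-0.59 ± 0.07 SE, adjusted p = 5.07e-05). With the ACTB covariate TXNIP was -0.63 (adjusted p = 0.0218) and ARRDC4 was -0.56 and not called (adjusted p = 0.0652).

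MLXIP, the glucose-sensing partner of MLX, was 8.80, 8.82 and 8.85 in shBCL9 cells, against 8.94, 8.91 and 8.92 in shGFP cells, a change of -0.10 that was not called (adjusted p = 0.395). In the transfected arm TXNIP was 11.71, 11.69 and 11.71 in miR-30 cells, against 11.91, 12.06 and 11.99 in cel-miR-67 cells. All miR-30 arrays were lower, by 0.28 on the log2 scale, and the change was not called (adjusted p = 0.0617), while ARRDC4 had -0.01 (adjusted p = 0.964). Between the controls TXNIP changed by -0.88 (adjusted p = 5.41e-08) and ARRDC4 by 0.34 (adjusted p = 0.00193) in shGFP cells, against 20.5% of all genes higher and 24.1% lower. Neither was called with the ACTB covariate (TXNIP -0.69, adjusted p = 0.267; ARRDC4 0.26, 0.771), and ARRDC4 was not called with the 18S covariate (0.224).

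**Figure D4:**
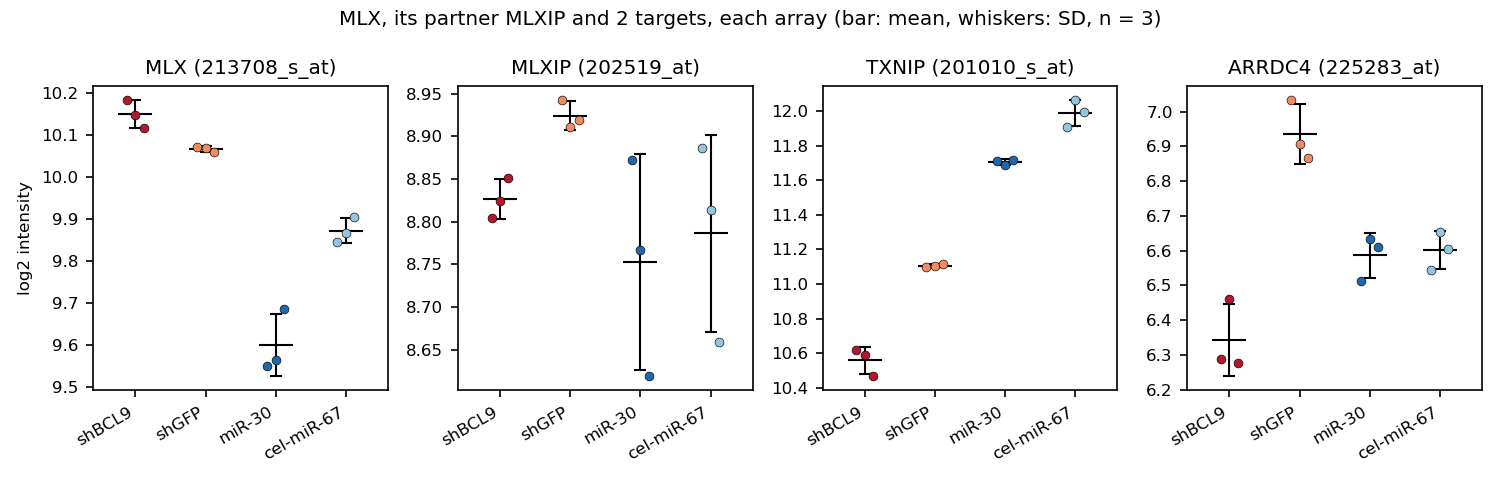
Log2 intensity (vertical axis, own scale in each panel) of MLX, its partner MLXIP and the targets TXNIP and ARRDC4 in each array of the shBCL9, shGFP, miR-30 and cel-miR-67 groups. Points are arrays, the bar is the mean and whiskers the SD (n = 3); TXNIP and ARRDC4 are lower in all 3 shBCL9 than in all 3 shGFP arrays, while MLX is not.

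Proteins that assist MYC or set its stability were measured for 22 of 24 listed genes. In shBCL9 cells 3 rose and 4 fell, with a median of -0.04, counts near the 11.5% higher and 15% lower over all genes. The falls were in PPP2R5A, a regulatory subunit of the phosphatase PP2A (-0.33, limma adjusted p = 0.00198), FBXW7, the ubiquitin ligase subunit that marks MYC for degradation (-0.32, 0.00686), CDK9, the kinase of transcription elongation (-0.25, 0.00693), and GSK3B, which phosphorylates MYC ahead of FBXW7 (-0.21, 0.0392). SKP2, another ligase subunit for MYC, rose by 0.26 (0.0101), the chromatin adaptor WDR5 by 0.24 (0.0109) and the pseudokinase TRIB3 by 0.17 (0.0442). CDK9, GSK3B, SKP2 and WDR5 each have a probe set of the opposite sign, and the calls of TRIB3 and GSK3B were lost in 13 and 12 of 18 alternatives. With the ACTB covariate 0 of the list were called, against 4140 of all 54613 probe sets.

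In miR-30 cells AURKA, a mitotic kinase that stabilises MYC proteins, rose by 0.46 ± 0.07 (SE, limma adjusted p = 0.00538), with 11.45, 11.31 and 11.44, against 10.88, 10.94 and 10.99 in cel-miR-67 cells. HDAC1, a deacetylase of the repressor complexes that MXD proteins recruit, fell by 0.32 ± 0.06 (SE, adjusted p = 0.0263), with 10.45, 10.33 and 10.44, against 10.72, 10.75 and 10.71 in cel-miR-67 cells. All miR-30 arrays were higher for AURKA and lower for HDAC1. The other measured genes of the list were not called, against 0.748% of all genes higher and 0.425% lower. The HDAC1 call was lost in 11 alternatives, among them leaving out any single array of the arm. Between the controls 8 cofactors were higher and 8 lower in shGFP cells, with RUVBL1, an ATPase of chromatin complexes, 4.05-fold higher (log2 change 2.02, adjusted p = 1.72e-10), RUVBL2 higher by 0.98, and TRIB3 9.81-fold lower (-3.29, adjusted p = 1.05e-13). Over all genes 20.5% were higher and 24.1% lower. With the ACTB covariate 2 of the 16 calls were kept, RUVBL1 (limma adjusted p = 0.0155) and TRIB3 (0.000153), and RUVBL2 was not called (0.109). That fit called 1576 of all 54613 probe sets, against 20858 without the covariate.

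Among 17 upstream regulators of MYC in B cells and Wnt signalling, 3 fell in shBCL9 cells and 14 did not pass the test, with a median of -0.02, against 15% of all genes lower. TCF7L2, a DNA-binding partner of beta-catenin, was 4.65, 4.46 and 4.34 in shBCL9 cells, against 5.74, 5.57 and 5.66 in shGFP cells, a log2 change of -1.17 (limma adjusted p = 4.57e-05). All its shBCL9 values lie below the level of 4.91, so no fold is given. IKZF1, the lymphoid factor that supports MYC and IRF4 in myeloma, was 8.92, 8.87 and 8.83 in shBCL9 cells, against 9.48, 9.59 and 9.47 in shGFP cells, 1.56-fold lower (adjusted p = 1.37e-05). The groups did not overlap in either gene, each of which has another probe set of the opposite sign. PRDM1, the plasma cell repressor of MYC, fell by 0.22 (adjusted p = 0.0256), which was lost in 7 of 18 alternatives, the ACTB covariate among them (0.134). None of the 17 was called in miR-30 cells, against 0.748% of all genes higher and 0.425% lower. With 1 filtered probe set per gene limma called 2 higher and 1 lower there, against 346 higher and 388 lower of 14729. Between the controls IKZF1 (0.76), IRF4 (0.52) and PRDM1 (0.34) were higher in shGFP cells, and FOXO1 (-0.87), EP300 (-0.59), TCF7L2 (-0.57), STAT3 (-0.43), CTNNB1 (-0.38) and CTCF (-0.26) were lower, against 20.5% of all genes higher and 24.1% lower. None of these 9 calls was kept with the ACTB covariate, a fit that called 1576 of all 54613 probe sets, against 20858 without it. IKZF1 was nearest (limma adjusted p = 0.0553), EP300 was at -0.08 (0.948) and the sign of CTNNB1 turned. TCF7L2 and CTNNB1 have probe sets of the opposite sign there.

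The genes whose pattern over the 12 arrays was most like that of MYC were sought among brightest probe sets with a mean above 4.91. They were SULF2, CCSAP, SLC9A3-OT1, LAX1 and MCM8, with Pearson r of 0.993 to 0.995. Those most like the MXD1 probe set 226275_at were PKHD1L1, RCOR3, AMMECR1L, ORMDL1 and BBS4, with r of 0.997 to 0.998. MYC ran from 7.10 to 7.55 in the transfected arm and from 8.73 to 9.17 in the hairpin arm, so r over all arrays counts mainly the gap between the arms and is a description of these 12 arrays only.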

How the data were processed

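Total RNA of 12 H929 samples was hybridised to Affymetrix arrays by a 3' IVT protocol, per the labels. The deposited values are log2 intensities per probe set, which the authors computed with affy's RMA according to the submitters' processing notes; versions are not given in the sources used here. They ran from 2.16 to 14.88 and were used as deposited. Arrays give no read depth, and 3 arrays per group limit the precision. The 62 control probe sets were left out, which leaves 54613, unfiltered. Of these, 41091 have 1 gene symbol, 1801 several and 11721 none listed; 41037 matched a RefSeq gene table, which changed 0 symbols.

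Limma 3.58.1 in R 4.3.3 (lmFit, eBayes) estimated the 4 group means from the 12 arrays together, with Benjamini-Hochberg adjustment over all probe sets; an adjusted p under 0.05 is a call. Other genes were read by their brightest probe set over 12 arrays. Shares over all genes include genes with low values, and the shares called among genes left by the filter on low values are larger. BCL9 was also tested by an exact permutation test. Figures used Python 3.11.15 and matplotlib 3.10.9. On 12 simulated arrays of 54613 probe sets, with changes planted in the shBCL9 group, the test recovered 2 of 50 planted changes of 0.25, 33 of 50 of 0.5, 49 of 50 of 1 and 50 of 50 of 2 (log2), with 3 false calls. Values were drawn independently around 1 mean per probe set, and only the planted probe sets changed. The real hairpin comparison called 12560 probe sets, so these rates do not describe its power.

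Named are all member probe sets, BCL9, up to 6 called genes per list, direction and comparison by adjusted p, and the 5 genes most like MYC and most like the member probe set that changed most. The members and lists were chosen with earlier results of these data known. Alternatives were a filter on low values (above the 40th percentile in at least 3 arrays), 1 probe set per gene, only plain probe sets (without _s_at, _x_at or _a_at), quantile normalization, median centring, only the 6 arrays compared, array weights, trended robust variance, a replicate block, a threshold of 0.01, ACTB 3' minus 5' or 18S signal as covariate, and leaving out each array. The comparison of the controls, and the counts of lists under the alternatives, were added after seeing the data.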

Additional observations from a re-analysis of the deposited data

Results flagged for a closer look

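Limma's test of the difference between the arms (miR-30 effect minus shBCL9 effect, log2) called 7 member probe sets. The effect was more positive in the miR-30 arm for MYC (0.58, adjusted p = 0.0022), MXD1 at 226275_at (0.65, 0.00361), MXD3 (0.46, 0.0149) and MXI1 (0.69, 0.000171), and more negative there for MLX at 213708_s_at (-0.35, 0.0145), 217910_x_at (-0.40, 0.0051) and 1570347_at (-0.38, 0.0321). It was not called at MXD1 228846_at (0.09, limma adjusted p = 0.729) or 206877_at (-0.19, 0.426). Nor was it called at MLX 217909_s_at (-0.17), 210752_s_at (-0.21) or 231401_s_at (0.05). In MYC, MXD3 and MXI1 each shBCL9 array lay below each shGFP array and each miR-30 array lay above each cel-miR-67 array. In the MLX probe sets 213708_s_at and 217910_x_at each shBCL9 array lay above each shGFP array and each miR-30 array lay below each cel-miR-67 array. The ACTB and 18S signals differ between the groups of the hairpin arm more than between those of the transfected arm. With the ACTB covariate the difference stayed called for MXI1 and for MXD1 at 226275_at, and with the 18S covariate for 0 member probe sets.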

How the results depend on the processing

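Between shBCL9 and shGFP, 7 member probe sets were called. The count was 4 with 1 filtered probe set per gene (of 8) and 4 with plain probe sets, 0 with the 18S covariate, and 5 to 6 when arrays were left out. Over all probe sets the count of 12560 became 6121 with 1 probe set per gene, 7457 with plain probe sets, 7363 at 0.01, 4140 with the ACTB covariate and 0 with the 18S covariate, and 9473 to 11669 with arrays left out. Between miR-30 and cel-miR-67, the member count of 0 became 2 with the filter, 1 with 1 probe set per gene, 1 with array weights and 4 with trended robust variance, and was 0 with arrays left out. The count of 445 over all probe sets became 917, 734 and 222 with the filter, 1 probe set per gene and plain probe sets, 148 with 6 arrays, 1744 with trended robust variance, 134 at 0.01 and 3 with the 18S covariate, and 168 to 241 with arrays left out. For the difference of effects, the member count of 7 became 3 with plain probe sets, 4 at 0.01, 3 with the ACTB covariate and 0 with the 18S covariate (6 to 7 with arrays left out), and that of all probe sets, 6367, became 3873, 3632, 3228, 2080 and 19 with 1 probe set per gene, plain probe sets, 0.01, ACTB and 18S (4897 to 6159 with arrays left out). Between shGFP and cel-miR-67, the member count of 11 became 4 with 1 probe set per gene, 4 with plain probe sets, 1 with ACTB and 7 with 18S (9 to 12 with arrays left out), and that of all probe sets, 20858, became 9043, 12680 and 1576 with 1 probe set per gene, plain probe sets and ACTB (18553 to 20034 with arrays left out). The 1 probe set per gene and plain settings test fewer probe sets by construction. For the covariates the cause was not tested. The 18S and ACTB signals in the hairpin arm and the ACTB signal between the controls stand apart by group. Those fits therefore cannot well separate covariate and group.

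Signs turned for MXD3 with ACTB (0.012) and MGA 212945_s_at with 18S (0.22) in shBCL9, and for MLX 1570347_at (-0.041) and MAX 210734_x_at (-0.0019) with ACTB between the controls. Among other named genes, signs turned in shBCL9 with 18S for ARRDC4 (0.44), SKP2 (-0.33), KLF6 (-0.036) and GADD45A (-0.40), and between the controls with ACTB for SKP2 (0.040), CTNNB1 (0.024) and CEBPA (-0.079). With 18S, 0 members of any list were called in shBCL9. In shBCL9 the activated genes called higher numbered 5 to 12 in the settings without a covariate.

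Replicate numbers are shared between groups, but same-numbered arrays were not treated as pairs in the main fit. After removal of group means they correlated at 0.064 to 0.109 in the hairpin arm and 0.097 to 0.295 in the transfected arm. Arrays of different numbers correlated at -0.147 to 0.052 in the hairpin arm and -0.311 to 0.125 in the transfected arm. In the hairpin arm 6 of 6 arrays correlated best with their own number, and in the transfected arm 5 of 6, a hint from the data only. With a replicate block the member counts were 6 for shBCL9, 0 for miR-30 and 6 for the difference of effects, and those of all probe sets were 12638, 213 and 6129. No block could be used between the controls, since it lies within an arm.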
